A study of Mus musculus with 2 samples.

Results

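Interferon-stimulated genes are the genes that a cell switches on when an interferon binds its receptor. Type I and type II interferons signal from these receptors through JAK kinases and STAT factors, which then bind short DNA motifs near the start of these genes. Their products sense viral RNA, cut or sequester it, tag proteins with ISG15, or attack pathogens inside vacuoles. Endothelial cells (ECs), which line blood vessels, carry the interferon receptors and are known to respond to interferon.

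The group described here holds 39 such genes of 21951 gene expression features. They were chosen by name as known interferon targets, with earlier results of the same data in view, among them their summed level in these cell groups. The levels are therefore a description and no test was made on them. All 39 had at least 200 UMIs (unique molecular identifiers, 1 per captured mRNA molecule) in the library, the minimum used below for counting genes, which 13852 genes passed.

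The data come from 1 pooled 10x single-cell library of sorted heart and liver ECs from C57BL/6 mouse pups aged P6 to P7. Pups carried the tamoxifen-inducible Cdh5-CreERT2 driver, active in ECs, with either the iSuRe-Cre or the iSuRe-HadCre allele, or were controls, whose genotype the labels do not give. The iSuRe-Cre allele, once recombined, keeps Cre and the membrane reporter MbTomato on together, whereas iSuRe-HadCre makes Cre and the recombinase FlpO for a limited time, after which FlpO removes both genes and turns MbTomato on. A single 40 mg/kg dose of 4-hydroxytamoxifen was given at P3 and tissue was taken 3 days later. The sort kept CD31+ MbTomato+ cells per the protocol, although the design text also speaks of sorting on the absence of the reporter. Antibody hashtags mark 6 groups, each of them 1 tube of cells, and the number of pups in a tube is not stated in them or in the study. The study describes the iSuRe cells of this experiment as carrying floxed Notch1, which the labels do not mention, so the allele and the loss of Notch1 cannot be told apart in the comparisons with control.

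Cdh5-positive cells with a single hashtag numbered 254 in control heart, 435 in iSuRe-Cre heart, 311 in iSuRe-HadCre heart, 54 in control liver, 858 in iSuRe-Cre liver and 76 in iSuRe-HadCre liver. A further 5585 Cdh5-positive cells carried no hashtag. Summed UMIs ranged from 624048 in control liver to 9341120 in iSuRe-Cre liver, and median UMIs per cell from 7322 in iSuRe-HadCre heart to 16379 in iSuRe-Cre heart. The endothelial markers Cdh5, Pecam1, Kdr, Emcn and Egfl7 were present in all groups, with a summed level between 3279 and 4173 CPM (UMIs of a gene per 1000000 gene UMIs of the group). Notch1 stood at 138 CPM in control heart and 160.2 CPM in control liver, and between 12.6 and 30.7 CPM in the iSuRe groups. The WPRE element of the reporter transcripts was counted in every group, controls included, from 63.5 CPM in iSuRe-Cre heart to 1070.3 CPM in iSuRe-HadCre liver, with 562 CPM in control heart. With 1 sample a group no comparison has a replicate check. All intervals are exact, 95%, and cover counting error only.

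The promoters of the members shared sequence that was not used to choose them. RefSeq promoters of the GRCm38.p6 build, 250 bases before to 50 after each start site, were at hand for 31 of the 39 genes. The letters GAAA, then 2 bases of any kind, then GAAA again, the core of the interferon-stimulated response element, were found on either strand in 18 of these 31 genes (58.1%), against 3.99% of the 27025 genes with a promoter. TTCNNNGAA, the core of the gamma-activated sequence, stood in 11 of 31 (35.5%), against 9.55% of all genes. Both were found in 7 of 31 (22.6%), against 0.614% of all genes. Matches of both can overlap, since each holds the letters GAA. The stretches below reach 25 bases beyond the outermost matches, are cut at the start site and are written on the gene's strand, with matches in capitals. The first 5 belong to Isg15 and antiviral effectors and show the first motif, alone or in repeats, to which Oas1a adds a match of the second, farthest from its start site.

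Isg15 (chr4:156200850-156200921, minus strand): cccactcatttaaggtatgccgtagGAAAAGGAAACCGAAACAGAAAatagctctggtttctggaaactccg
Rsad2 (chr12:26456538-26456597, minus strand): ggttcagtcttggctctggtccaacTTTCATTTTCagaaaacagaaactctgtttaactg
Ifit1 (chr19:34640760-34640838, plus strand): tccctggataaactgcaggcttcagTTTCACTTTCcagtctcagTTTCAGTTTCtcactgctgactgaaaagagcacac
Ifit3 (chr19:34583348-34583441, plus strand): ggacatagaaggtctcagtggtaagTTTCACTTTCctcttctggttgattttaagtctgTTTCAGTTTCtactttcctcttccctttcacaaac
Oas1a (chr5:120907526-120907648, minus strand): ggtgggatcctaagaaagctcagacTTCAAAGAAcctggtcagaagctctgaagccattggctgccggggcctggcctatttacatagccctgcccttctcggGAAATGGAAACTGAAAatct

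In Isg15 the first motif occurred 3 times in overlap within 78 bases of the start. In Ifit1 and Ifit3 it occurred in pairs on the opposite strand, from 104 and 156 bases before the start. The second motif was present in 5 of 10 antiviral effectors (Ifit2, Oas1a, Isg20, Bst2 and Ifitm3), in 3 of 6 GTPases with a promoter, and in Irf1, Eif2ak2 and Ifi35. The GTPases and Irf1 follow, to show it beside the first motif and alone.

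Igtp (chr11:58199486-58199555, plus strand): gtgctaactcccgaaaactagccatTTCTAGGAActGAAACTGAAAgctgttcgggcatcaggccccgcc
Irgm2 (chr11:58214877-58214947, plus strand): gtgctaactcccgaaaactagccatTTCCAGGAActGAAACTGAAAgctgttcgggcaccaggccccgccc
Gbp7 (chr3:142530205-142530317, plus strand): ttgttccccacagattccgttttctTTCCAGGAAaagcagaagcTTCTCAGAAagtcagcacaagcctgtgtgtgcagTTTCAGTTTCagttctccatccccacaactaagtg
Irf1 (chr11:53769899-53769957, plus strand): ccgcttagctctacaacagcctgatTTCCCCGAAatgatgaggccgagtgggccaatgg

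Igtp and Irgm2 lie next to each other on chromosome 11, and their stretches, which end before the start site, differed at 2 of 70 bases. Their annotated gene bodies overlap, so reads of these genes may be split uncertainly. By role, the first motif was present in 6 of 6 GTPases with a promoter, 3 of 3 RNA and DNA sensors, 6 of 10 antiviral effectors and 1 of 4 transcription factors. Among the 31 genes, those with the motif had a median log2 ratio of 1.43 (n = 18) in iSuRe-Cre against control heart and those without it 1.26 (n = 13). In iSuRe-HadCre against control heart these medians were 0.51 and 0.42, in iSuRe-Cre against control liver 1.23 and 1.08, and in iSuRe-HadCre against control liver, in the opposite order, 0.52 and 0.54. A match is a string of letters in a window and was not tested as a binding site.

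The summed level of the 39 genes was lowest in the controls, intermediate in the iSuRe-HadCre groups and highest in the iSuRe-Cre groups, in both tissues. In heart ECs the sum was 3717 CPM in control, 13308 CPM in iSuRe-Cre and 5259 CPM in iSuRe-HadCre. In liver ECs it was 2458 CPM in control, 7041 CPM in iSuRe-Cre and 3757 CPM in iSuRe-HadCre. For single genes the same order of the 3 groups held for 36 of 39 in heart, all but Irf1, Trim25 and Samd9l, and for 33 of 39 in liver. In liver the step of single genes from control to iSuRe-HadCre depended on the hashtag calls, as given below. Across all 6 groups, 34 members were highest in iSuRe-Cre heart, 4 in iSuRe-Cre liver and 1 in iSuRe-HadCre heart, while 28 were lowest in control liver, 9 in control heart and 2 in iSuRe-HadCre liver. The median member stood at 34.7 CPM in control heart, 120.4 CPM in iSuRe-Cre heart, 64.5 CPM in iSuRe-HadCre heart, 30.4 CPM in control liver, 76.3 CPM in iSuRe-Cre liver and 43.9 CPM in iSuRe-HadCre liver. Cells without a hashtag summed to 4149 CPM, with a median member of 44.8 CPM. RNA outside cells, read from 24194 barcodes of 10 to 100 UMIs, summed to 2550 CPM, above control liver and below the other groups.

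**Figure D1:**
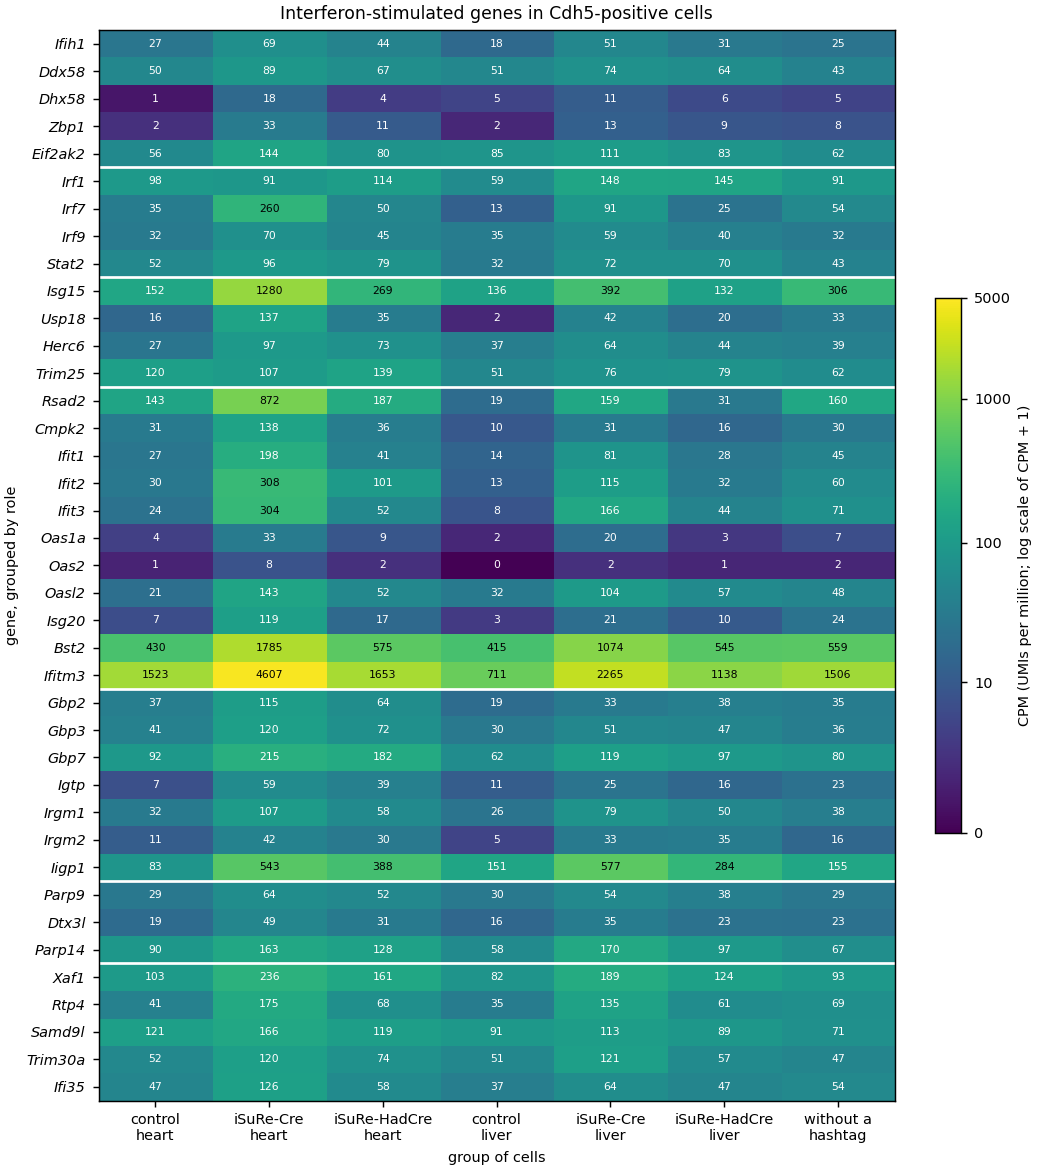
Level of each of the 39 genes (rows, grouped by role) in the 6 hashtag groups and in cells without a hashtag (columns), printed in CPM and coloured by log10 of CPM + 1. The iSuRe-Cre heart column holds the highest value for 34 of the genes, and Ifitm3 is the highest gene in every column, from 711 to 4607 CPM.

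The 2 most abundant members are membrane proteins that restrict enveloped viruses. Ifitm3, which blocks fusion of virus with the endosome, stood at 1523 CPM in control heart, 4607 CPM in iSuRe-Cre heart, 1653 CPM in iSuRe-HadCre heart, 711 CPM in control liver, 2265 CPM in iSuRe-Cre liver and 1138 CPM in iSuRe-HadCre liver. Bst2, or tetherin, which holds budding virus at the cell surface, stood at 430.4, 1785, 575, 415, 1074 and 545 CPM in the same order. For Ifitm3 in heart, the iSuRe-HadCre level lay near control and the iSuRe-Cre level stood apart. Without Ifitm3 and Bst2 the other 37 genes summed to 1764 CPM in control heart, 6916 CPM in iSuRe-Cre heart and 3031 CPM in iSuRe-HadCre heart, and to 1332, 3702 and 2075 CPM in the liver groups.

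The next 3 by UMIs over the whole library were Isg15, Iigp1 and Rsad2, a rank to which the iSuRe-Cre cells add most among the hashtag groups. In control and iSuRe-HadCre liver Rsad2 was below members such as Irf1 and Xaf1. Isg15, the ubiquitin-like protein that is attached to other proteins, stood at 152 CPM in control heart, 1280.2 CPM in iSuRe-Cre heart, 269 CPM in iSuRe-HadCre heart, 136 CPM in control liver, 392 CPM in iSuRe-Cre liver and 132 CPM in iSuRe-HadCre liver. Rsad2, or viperin, which makes a chain-ending nucleotide that stops viral RNA synthesis, stood at 143, 872, 187, 19.2, 159 and 30.7 CPM. Iigp1, a GTPase that coats and breaks the vacuoles of intracellular parasites, stood at 82.8, 543, 388, 151, 577 and 284 CPM. For Isg15 and Rsad2 iSuRe-Cre heart was far above the other 5 groups, whereas for Iigp1 both iSuRe-Cre groups and iSuRe-HadCre heart were high.

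In heart ECs of iSuRe-Cre pups the summed level was 3.58-fold that of control (interval 3.51 to 3.65), and 36 of 39 members were higher by at least 1.5-fold with 10 CPM added to each level, the size rule used throughout. The same rule was passed upwards by 3.32% of all 13852 genes and downwards by 3.13%, and by no member downwards. The median log2 ratio was 1.40 over the members and −0.02 over all genes. Adding 10 CPM holds back genes of few UMIs and sets the order of members here and in each comparison below. The largest ratios were then of the antiviral effectors Ifit3 and Ifit2, Isg15, the exonuclease Isg20, and Irf7, which amplifies type I interferon transcription. The ratios printed are plain ones. Ifit3 was counted at 23.8 CPM in control and 304 CPM in iSuRe-Cre, a ratio of 12.8 (10.1 to 16.4). Ifit2 had a ratio of 10.4 (8.39 to 12.9), Isg15 of 8.43 (7.68 to 9.28), Isg20 of 18.1 (11.7 to 29.8, from 20 control UMIs) and Irf7 of 7.52 (6.18 to 9.23). At the other end, Trim25, a ubiquitin ligase that acts on RIG-I, had a ratio of 0.89 (0.79 to 1.01), Irf1, a factor that acts early after interferon gamma, 0.93 (0.81 to 1.07), and Samd9l, a translation repressor, 1.37 (1.22 to 1.54).

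By role, ISG15 and its enzymes summed to 5.15-fold of control in iSuRe-Cre heart, with 3 of 4 past the rule. The GTPases summed to 3.95-fold with 7 of 7 past it, and the antiviral effectors to 3.80-fold with 11 of 11. Ifitm3 and Bst2 held 38254 and 14825 of the 70716 effector UMIs in iSuRe-Cre heart, so they set most of that sum. By the median log2 ratio of their members the effectors came first, at 2.29. ISG15 and its enzymes followed at 2.02, and the GTPases at 1.40. Sensors of RNA and DNA summed to 2.58-fold with 5 of 5, transcription factors to 2.38-fold with 3 of 4, the remaining members to 2.26-fold with 4 of 5, and the ADP-ribosylation genes Parp9, Dtx3l and Parp14 to 1.99-fold with 3 of 3. Dhx58, the regulator of the RNA sensors, rested on 2 UMIs in control heart and 146 in iSuRe-Cre heart, which gives a ratio of 26.6 with an interval from 7.24 to 222.

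In iSuRe-HadCre heart the summed level was 1.41-fold that of control (1.38 to 1.45), and 18 of 39 members passed the rule upwards and none downwards, against 4.45% and 0.794% of all genes. The median log2 ratio was 0.52 over the members and 0.08 over all genes. The GTPases led here. Iigp1 was 4.69-fold higher (4.09 to 5.39) and Igtp, which went from 6.93 CPM to 39.3 CPM, 5.67-fold higher (3.55 to 9.49). They were followed by Ifit2 with 3.41 (2.69 to 4.36), Herc6, the mouse ligase for ISG15, with 2.74 (2.11 to 3.57), and Oasl2 with 2.47 (1.84 to 3.36). As a role the GTPases summed to 2.75-fold of control (2.55 to 2.97) with 7 of 7 past the rule, while the antiviral effectors summed to 1.22-fold (1.18 to 1.26) with 4 of 11 past it. In iSuRe-HadCre heart Ifitm3 and Bst2 held 5129 and 1783 of the 8457 effector UMIs, and Iigp1 held 1205 of the 2589 GTPase UMIs. The median log2 ratio was 0.91 over the GTPases and 0.42 over the effectors. With 10 CPM added the lowest members were Samd9l at a plain ratio of 0.98 (0.85 to 1.13), Ifitm3 at 1.09 (1.04 to 1.13) and Oas2, whose plain ratio of 1.71 (0.43 to 7.96) rests on 4 and 7 UMIs and lies above that of many other members.

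**Figure D2:**
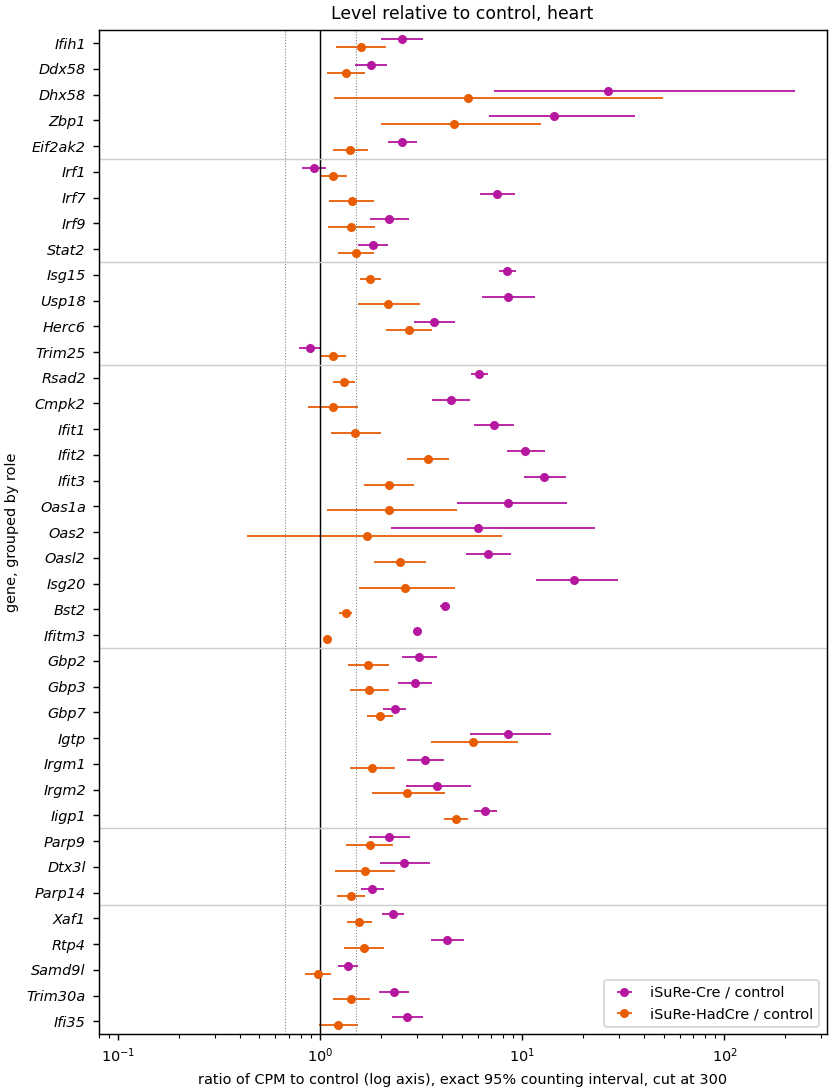
Ratio of the level in iSuRe-Cre (purple) and iSuRe-HadCre (orange) heart ECs to control heart for each gene (log axis), with exact 95% counting intervals. The solid line marks 1 and the dotted lines 1.5-fold either way. Most purple points lie well to the right of the orange ones among the antiviral effectors, with Isg20 at 18.1 against 2.64, and close to them among the GTPases, with Iigp1 at 6.55 against 4.69.

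Set directly against each other, heart ECs of iSuRe-HadCre pups held 0.40 of the summed level of iSuRe-Cre pups (0.39 to 0.40). Under the rule 22 of 39 members were lower and none higher, against 2.14% and 8.36% of all genes. The median log2 ratio was −0.74 over the members, and 0.11 over all genes. With 10 CPM added, Ifit3 was lowest, with a plain ratio of 0.17 (0.14 to 0.20), followed by Isg20 at 0.15 (0.11 to 0.19) and Isg15 at 0.21 (0.20 to 0.23). Of the antiviral effectors 10 of 11 were lower and their sum was 0.32-fold. Of the GTPases 3 of 7 were lower and their sum was 0.70-fold. Trim25 at 1.30 (1.16 to 1.46) and Irf1 at 1.25 (1.10 to 1.42) were the members with ratios above 1, and next came Gbp7 at 0.85, Stat2 at 0.83 and Parp9 at 0.80. The comparisons with control share the control cells, so their ratios are given side by side and not related to each other.

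In liver ECs of iSuRe-Cre pups the summed level was 2.86-fold that of control (2.72 to 3.02), with 31 of 39 members past the rule upwards and none downwards, against 6.04% and 9.23% of all genes. The median log2 ratio was 1.12 over the members and −0.03 over all genes. Control liver held 54 cells and 1534 member UMIs, which widens these intervals. Ifit3 rested on 5 control UMIs and had a ratio of 20.7 (8.86 to 63.9), Rsad2 on 12 with 8.25 (4.71 to 16.0) and Ifit2 on 8 with 8.97 (4.54 to 20.8). Irf7 had a ratio of 7.09 (3.58 to 16.5), and Usp18, the protease that removes ISG15 and dampens type I receptor signalling, 26.4 from a single control UMI (4.71 to 1045). Samd9l at 1.24 (0.95 to 1.65) and Eif2ak2, the kinase PKR, at 1.30 (0.99 to 1.75) were the lowest members with counts in both groups. Oas2 had 0 UMIs in control liver, which allows up to 4.81 CPM at 3 counts, and 2.25 CPM in iSuRe-Cre liver, so no ratio is given. Irf1, which did not differ past the rule in heart, was counted at 59.3 CPM in control liver and 148 CPM in iSuRe-Cre liver, 2.50-fold higher (1.80 to 3.56), and this difference between tissues was not tested.

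In iSuRe-HadCre liver the summed level was 1.53-fold that of control (1.43 to 1.63), and 17 of 39 members passed the rule upwards and none downwards, against 6.79% and 8.09% of all genes. The median log2 ratio was 0.55 over the members and 0.00 over all genes. Both groups are small, with 76 and 54 cells. Irgm2 was counted with 24 UMIs against 3, a ratio of 7.31 (2.22 to 37.9), Ifit3 with 30 against 5, a ratio of 5.48 (2.11 to 18.1), and Usp18 with 14 against 1, a ratio of 12.8 (1.95 to 541). With 10 CPM added Irf1 at 2.44 (1.66 to 3.67) and Stat2, a part of the complex that answers type I interferon, at 2.19 (1.28 to 3.90) were next, although Zbp1, Isg20 and Ifit2 had higher plain ratios on fewer UMIs. Isg15 at 0.97 (0.71 to 1.32), Samd9l at 0.98 (0.67 to 1.43) and Eif2ak2 at 0.98 (0.66 to 1.46) were lowest, with intervals that included 1. The study called hashtags with HTODemux, not with the fixed minimums used here. With HTODemux calls, which gave 287 and 230 cells, 2 of the 39 members passed the rule in this comparison and the sum was 1.20-fold. The median log2 ratio was then 0.17 over the members and −0.02 over all genes. Beside the 6.79% of all genes that passed upwards with the main calls, 2 of 39 members is no excess. Ifit3, Ifit1, Isg20 and Iigp1 were then lower than control instead of higher.

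Against iSuRe-Cre liver, iSuRe-HadCre liver held 0.53 of the summed level (0.51 to 0.56). By the rule 17 of 39 members were lower and none higher, against 5.02% and 6.82% of all genes, and the median log2 ratio was −0.57 over the members and 0.03 over all genes. Rsad2 at 0.19 (0.12 to 0.30), Ifit3 at 0.26 (0.18 to 0.38) and Ifit2 at 0.28 (0.17 to 0.43) were lowest with 10 CPM added, and Oas1a, on 2 UMIs in iSuRe-HadCre liver, had the lowest plain ratio, 0.14 (0.017 to 0.53). The antiviral effectors were lower in 10 of 11 cases, and the GTPases in 1 of 7, Iigp1 at 0.49 (0.42 to 0.57). Gbp2 at 1.15 (0.74 to 1.72), Irgm2 at 1.07 (0.68 to 1.63), Trim25 at 1.04 (0.77 to 1.37), Stat2 at 0.98 and Irf1 at 0.98 had intervals that included 1.

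**Figure D3:**
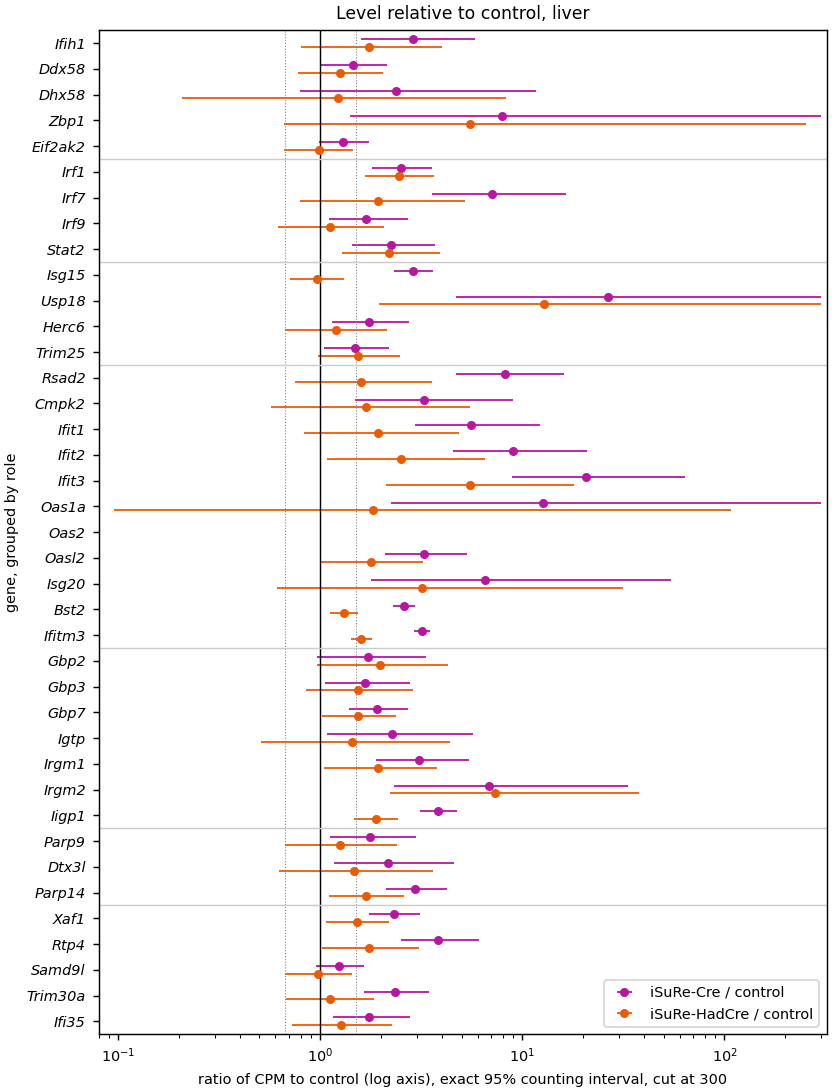
Ratio of the level in iSuRe-Cre (purple) and iSuRe-HadCre (orange) liver ECs to control liver for each gene (log axis), with exact 95% counting intervals cut at 300. The intervals are wide where control liver held few UMIs, as for Usp18 with 1, and Oas2 has no point because it had 0.

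Marker RNA of other cell types was spread unevenly over the groups. In the liver the neutrophil marker list Ngp, Camp, S100a8 and S100a9 summed to 591 CPM in control, 3340 CPM in iSuRe-Cre and 41.0 CPM in iSuRe-HadCre, with all 4 genes detected in each. Cells gated as neutrophil lineage, 310 of 388 of them without a hashtag, held 2130 CPM of the 39 members. Their level within the iSuRe-Cre tube is not known from this. Without cells that held 5 or more UMIs of these 4 genes the iSuRe-Cre to control ratio in liver was 2.96. The macrophage list of 5 genes summed to 11.2 CPM in control liver, where C1qa, C1qc, Csf1r and Adgre1 were at 0, to 191 CPM in iSuRe-Cre liver and to 60.0 CPM in iSuRe-HadCre liver. Without cells carrying any Ptprc or C1q UMI the ratio was 2.77. The part of blood cells in the liver ratio was not tested. The hepatocyte list of 5 genes summed to between 52.7 and 653 CPM over the 6 groups, highest in iSuRe-Cre heart, and its part in the result was not tested. The sinusoidal list Stab2, Stab1, Lyve1, Clec4g and Oit3 summed to 308 CPM in control liver, 2710 CPM in iSuRe-Cre liver and 748 CPM in iSuRe-HadCre liver, so the liver groups held different vessel types.

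The difference between genotypes was also seen within 1 vessel type. Cdh5-positive cells with Tcf15 and Fabp4 UMIs, gated as capillary ECs, summed to 3562 CPM in control heart (204 cells), 14188 CPM in iSuRe-Cre heart (339 cells) and 5765 CPM in iSuRe-HadCre heart (219 cells). In the liver the same gate gave 2576 CPM in control (14 cells), 6883 CPM in iSuRe-Cre (89 cells) and 3688 CPM in iSuRe-HadCre (21 cells). Isg15 within the heart capillary ECs stood at 134, 1392 and 302.2 CPM, and Rsad2 at 112, 931 and 201 CPM. The order of the 3 genotypes was thus the same as over all ECs of the tissue. Stab2 sinusoidal ECs summed to 7960 CPM in iSuRe-Cre liver (442 cells) and 4154 CPM in iSuRe-HadCre liver (9 cells). Npr3 endocardial cells, which line the heart chambers, summed to 2937 CPM in control (8 cells), 4882 CPM in iSuRe-Cre (33 cells) and 3831 CPM in iSuRe-HadCre (12 cells). In these endocardial cells Rsad2 stood at 13.2 CPM in iSuRe-Cre (6 UMIs) and 30.6 CPM in control (4 UMIs), unlike in capillary ECs, on counts too low to order. In iSuRe-HadCre endocardial cells Rsad2 stood at 103 CPM (54.7 to 176, 13 UMIs in 12 cells), and the iSuRe-Cre interval was 4.86 to 28.8. These intervals leave out the spread among so few cells, so these values are not ordered either. Iigp1 stood at 521 CPM (403 to 663) in iSuRe-HadCre, 159 CPM (124 to 200) in iSuRe-Cre and 7.65 CPM in control, the last from 1 UMI. Isg15 was highest in iSuRe-Cre, at 419 CPM, against 176 CPM in control and 190 CPM in iSuRe-HadCre.

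Across the library, ECs held more of the members than any other gated cell type. Capillary ECs of all groups together summed to 8118 CPM (2256 cells), sinusoidal ECs to 6762 CPM (726 cells), Gja5 and Vwf large-vessel ECs to 4218 CPM (48 cells) and endocardial ECs to 3507 CPM (236 cells). Blood cells came next, with 2130 CPM in neutrophil-lineage cells (388 cells), 1835 CPM in lymphocytes (43 cells) and 1719 CPM in macrophages (90 cells). These 3 types and all other non-endothelial types lay below the 2550 CPM of the free RNA. Hepatocytes summed to 1329 CPM (451 cells), smooth muscle to 617 CPM (63 cells), mesenchymal cells to 396 CPM (1024 cells), cardiomyocytes to 164 CPM (36 cells) and neurons to 149.9 CPM (191 cells). Of the 39 genes 35 were highest in 1 of the 4 EC types, 17 in capillary and 14 in sinusoidal ECs. The exceptions were Zbp1, a sensor of Z-form nucleic acid, Dtx3l and Trim30a in lymphocytes, with Zbp1 at 84.5 CPM there and 16.2 CPM in capillary ECs, and Oas2 in macrophages at 10.3 CPM. Capillary ECs had the higher Isg15, 697 CPM against 316 CPM in sinusoidal ECs, and sinusoidal ECs the higher Iigp1, 506 CPM against 335 CPM. The types draw on different groups, so these levels also carry the genotype: 442 of 726 sinusoidal ECs came from iSuRe-Cre liver, and 339 of 2256 capillary ECs from iSuRe-Cre heart.

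**Figure D4:**
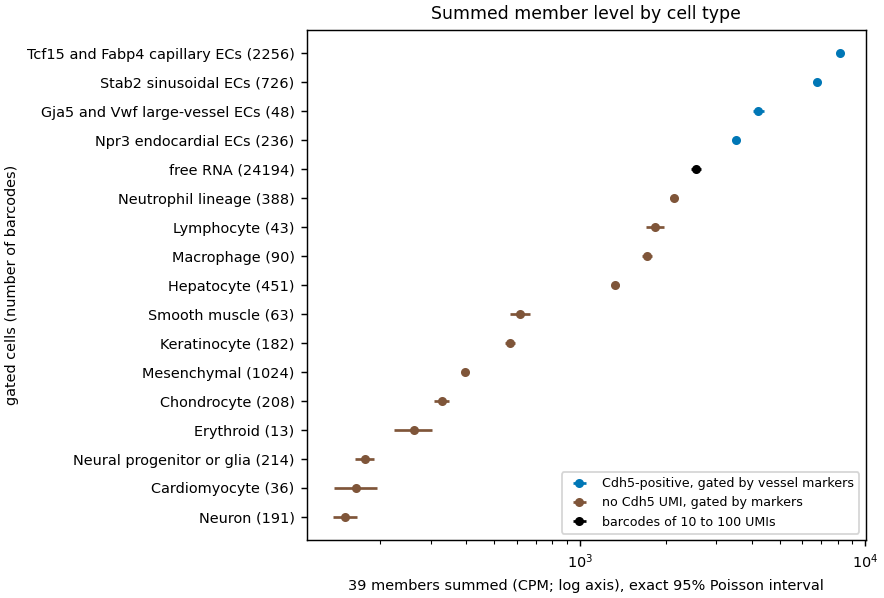
Summed level of the 39 genes in gated cell types and in free RNA (CPM, log axis) with exact 95% Poisson intervals, blue for Cdh5-positive cells split by vessel markers, brown for cells without a Cdh5 UMI, black for barcodes of 10 to 100 UMIs. The 4 blue points lie at 3507 to 8118 CPM, above the free RNA at 2550 CPM, and the brown points lie below it.

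The level varied widely among cells of 1 group. For the 37 members without Ifitm3 and Bst2, the level per cell, in CPM of that cell's own UMIs, ran in control heart from 394 at the 5th percentile through a median of 1426 to 4727 at the 95th percentile. In iSuRe-Cre heart these values were 710, 4351 and 26578 CPM, and in iSuRe-HadCre heart 492, 2269 and 11083. The upper ends thus stood further apart than the lower ends. Of iSuRe-Cre heart cells 204 of 435 (46.9%, interval 42.1 to 51.7) exceeded the control 95th percentile, and of iSuRe-HadCre heart cells 77 of 311 (24.8%, 20.1 to 29.9). In the liver the shares above the control liver 95th percentile of 4467 CPM were 274 of 858 (31.9%, 28.8 to 35.2) in iSuRe-Cre and 12 of 76 (15.8%, 8.43 to 26.0) in iSuRe-HadCre. That limit comes from 54 control cells, of which 3 lay above it. The intervals leave out the error of the limits and the differences in depth between groups.

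**Figure D5:**
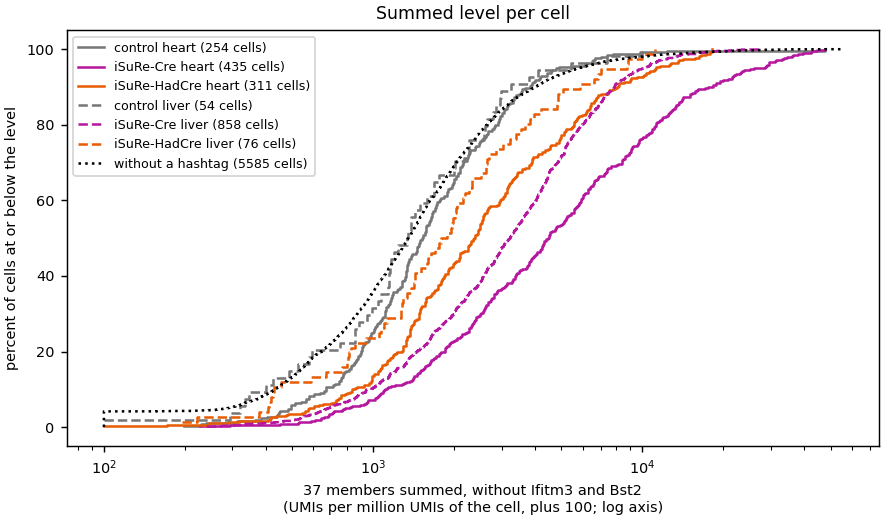
Cumulative share of cells (percent) by the summed level of the 37 members without Ifitm3 and Bst2 in each cell (CPM of the cell plus 100, log axis), solid for heart, dashed for liver, dotted for cells without a hashtag, coloured by genotype. The iSuRe-Cre heart curve lies furthest right, with a median of 4351, and the curve of cells without a hashtag, with a median of 1250.3, lies close to the controls.

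Single cells could weigh on a group's level. In control heart, where 106 of 254 cells had an Rsad2 UMI, 1 cell held 89 of the 433 Rsad2 UMIs. The cell with the highest share of member UMIs, which held those 89, stood at 60312 CPM over the 39 members, against 8887 CPM at the 95th percentile of control heart, and carried 93 UMIs of the control heart hashtag and 4 of the iSuRe-Cre heart hashtag. Leaving out the highest cell of each group moved the iSuRe-Cre to control ratio in heart to 3.70 and the iSuRe-HadCre to control ratio to 1.45. In iSuRe-Cre heart the 44 cells with the most UMIs of a gene held 59.5% of its 7243 Rsad2 UMIs and 27.1% of its 38254 Ifitm3 UMIs, shares that rise where a gene has fewer UMIs per cell. Ifitm3 had a UMI in 254 of 254 control heart and 435 of 435 iSuRe-Cre heart cells.

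Shares of cells with a UMI depend on depth, so each cell was also thinned to 2000 UMIs. An Isg15 UMI was then found in 18.8% of control heart, 66.0% of iSuRe-Cre heart, 32.6% of iSuRe-HadCre heart, 25.1% of control liver, 42.4% of iSuRe-Cre liver and 22.2% of iSuRe-HadCre liver cells. Before thinning these shares were 43.3%, 90.6%, 59.8%, 55.6%, 73.4% and 46.1%. For comparison, mesenchymal cells had 2.71% after and 9.86% before thinning (median 15670 UMIs per cell) and neurons 2.10% and 5.24% (median 13105). All 6 groups were above these mesenchymal cells and neurons for Isg15, which does not place them above free RNA. Shallower types held more Isg15, at 95.9 CPM in hepatocytes and 114 CPM in neutrophil-lineage cells. Free RNA held 141 CPM, slightly above control liver at 136 CPM and iSuRe-HadCre liver at 132 CPM. An Ifit3 UMI was found after thinning in 3.14% of control heart, 30.1% of iSuRe-Cre heart and 7.57% of iSuRe-HadCre heart cells, and in 2.01%, 25.4% and 9.43% of the liver groups, against 0.898% of mesenchymal cells.

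Roles varied together from cell to cell. Across the 435 iSuRe-Cre heart cells the share of antiviral effectors without Ifitm3 and Bst2 and the share of GTPases correlated with r = 0.81, and with Isg15 with r = 0.84. Across the 254 control heart cells these values were 0.43 and 0.46, and across the 311 iSuRe-HadCre heart cells 0.53 and 0.62. Liver groups gave 0.52 to 0.63 with the GTPases. The cells of a group share 1 hashtag tube and the groups differ in median UMIs per cell, so these values are given group by group and were not compared. The correlation of the effectors with total UMIs per cell lay between −0.16 and 0.02 over the 6 groups.

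The iSuRe groups differed in how many cells showed the reporter. A WPRE UMI was found in 203 of 435 iSuRe-Cre heart and 293 of 311 iSuRe-HadCre heart cells. The members summed to 11314 CPM in iSuRe-Cre heart cells with and 15602 CPM in those without a WPRE UMI, and to 6325 and 7834 CPM in iSuRe-Cre liver. In iSuRe-HadCre heart they summed to 5199 CPM with (293 cells) and 7207 CPM without (18 cells), and in control heart to 3756 CPM with (231 cells) and 3059 CPM without (23 cells). The cells with a WPRE UMI in iSuRe-Cre heart were deeper, with a median of 19864 UMIs against 14297. The high level in iSuRe-Cre heart was thus present in cells with and without a counted reporter transcript.

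The rest of the interferon pathway was read from lists that were also drawn up with earlier results known. Of 21 interferon genes, the ligands, 178 UMIs were counted in the 14348 barcodes that passed the quality limits, 148 of them of Ifng, the type II interferon. Ifng stood at 3.85 CPM in iSuRe-Cre liver (36 UMIs) and 3.20 CPM in control liver (2 UMIs), a ratio of 1.20 (0.31 to 10.3), with 1 UMI in iSuRe-HadCre heart and 0 in the other 3 groups. Ifnb1, a type I interferon, had 8 UMIs in all and all 8 were in iSuRe-Cre heart cells, at 0.96 CPM, while the 0 UMIs of control heart allow up to 0.99 CPM. Other interferon genes had 11 UMIs or fewer in all these barcodes, and the Ifna and Ifnl genes had 0. Lymphocytes make Ifng, and their marker list summed to 42.3 CPM in iSuRe-Cre liver and 96.1 CPM in control liver, against at most 10.3 CPM in the other groups.

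The receptors did not pass the rule against control. This held for all 5 receptor genes with 200 UMIs, in both tissues and both directions. In iSuRe-HadCre against iSuRe-Cre heart Ifngr1 was higher past it, as were 8.36% of all genes. Ifnar1, a chain of the type I receptor, stood between 52.6 and 97.7 CPM, and Ifngr1, a chain of the type II receptor, between 68.1 and 145 CPM. Stat3, a STAT factor that also answers other cytokines, stood between 115 and 172 CPM and did not pass the rule. Of 17 sensors, adaptors and their factors tested, 4 were higher in iSuRe-Cre heart, Myd88, Irf8, Nlrc5 and Samhd1, and 1 in iSuRe-HadCre heart, Nlrc5. The rule was passed upwards by 3.32% and 4.45% of all genes in these 2 comparisons. In liver, Irf8 and Myd88 were higher in iSuRe-Cre and Irf8 and Samhd1 in iSuRe-HadCre, where 6.04% and 6.79% of all genes were higher. Irf8 had a ratio of 11.5 (3.92 to 56.0) and 5.48 (1.60 to 29.1) from 3 control UMIs. The cytosolic DNA sensor Cgas stood between 10.9 and 17.7 CPM and Sting1, its adaptor, between 11.7 and 32.3 CPM. Of 6 negative regulators Socs1 alone passed the rule against control, in both iSuRe-Cre groups, as did 3.32% of all genes in heart and 6.04% in liver. Counts from such short lists are not read as a result about these lists.

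A second list of interferon-stimulated genes, none of them among the 39, gave counts of the same kind. Of its 46 genes 43 were in the table and 39 had 200 UMIs. Against control, 29 were higher and 0 lower in iSuRe-Cre heart. The counts for iSuRe-HadCre heart were 14 and 0, those for iSuRe-Cre liver 22 and 2, and those for iSuRe-HadCre liver 16 and 1. In the same order, 3.32%, 4.45%, 6.04% and 6.79% of all genes were higher and 3.13%, 0.794%, 9.23% and 8.09% lower. The median log2 ratios were 1.09, 0.41, 0.60 and 0.50, against −0.02, 0.08, −0.03 and 0.00 over all genes. Cxcl10, a chemokine that draws T cells, stood at 38.9 CPM in control heart, 527 CPM in iSuRe-Cre heart and 42.2 CPM in iSuRe-HadCre heart, and at 9.62, 304.9 and 32.2 CPM in the liver groups. Cxcl9, a chemokine of the same receptor that is known to follow interferon gamma, stood at 19.5, 404 and 97.3 CPM in heart and at 0, 113 and 20.5 CPM in liver. Cxcl10 thus stood near control in iSuRe-HadCre heart, with a ratio of 1.08 (0.84 to 1.40), and Cxcl9 above it, with 5.00 (3.77 to 6.72). The genes lower in liver were Ifi27 and Ifitm1 in iSuRe-Cre and Ifitm1 in iSuRe-HadCre.

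Cells without a hashtag, more numerous than all tagged cells together, held the members at a level between those of the groups. Their Isg15 stood at 305.96 CPM, Rsad2 at 159.8 CPM, Iigp1 at 155 CPM and Ifitm3 at 1506 CPM. Their capillary ECs summed to 6078 CPM (1329 cells), between the control and iSuRe-Cre heart values, and their sinusoidal ECs to 3210 CPM (254 cells). Of the 5585 cells 393 (7.04%) exceeded the control heart 95th percentile. Their tissue and genotype are unknown.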

How the data were processed

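The deposited matrix holds unnormalized UMI counts per feature and barcode; per the labels and the study's methods the authors used Cell Ranger 7.1.0 for both hashtags and transcripts, on GRCm38 with genes of Ensembl 98 and added transgene sequences. The 2755147 barcodes had not been filtered. Kept were 14348 with more than 2000 and fewer than 75000 gene UMIs, more than 500 genes, and mitochondrial and haemoglobin shares each below 5%. A group needed 25 UMIs of its hashtag (140 for hashtag 302), less of the others, and log-normalized Cdh5 above 0.9. The study instead called hashtags with HTODemux and also removed cells with normalized WPRE of 0.5 or less, so the groups used here differ from its own. The 131 Cdh5-positive barcodes with 2 or more hashtags were left out, and no doublet caller was run.

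Levels are CPM, a gene's summed UMIs per 1000000 gene UMIs of the group. Ratios carry exact conditional intervals and levels exact Poisson intervals (scipy 1.17.1, numpy 2.4.6). The rule counts 1.5-fold after adding 10 CPM, among 13852 genes with 200 UMIs. Interval code was tested on simulated data. Cell types needed 10 marker UMIs of 2 markers, at least 0.1% of UMIs, and no Cdh5 UMI. Free RNA was read from barcodes of 10 to 100 UMIs.

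The members, lists and tests were chosen with earlier results of these data known. Full values are given for the 5 most abundant members and, per comparison, the 5 highest and 3 lowest log2 ratios. Alternatives changed the Cdh5, hashtag (HTODemux, Seurat 5.3.0), WPRE, depth, weighting, normalization, blood-cell and vessel criteria. Ifit3 and Ifit3b, Oas1a and Oas1g, and the Irgm and Gbp families share sequence, so their counts may be split uncertainly. Promoters are from RefSeq, GRCm38.p6, and gene positions from GENCODE M21. In all, 2 hashtag and 5 multiplexing features without a group were not used.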

Additional observations from a re-analysis of the deposited data

Results flagged for a closer look

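Cdh5-positive barcodes with 2 or more hashtags, which entered no group, held the 39 members at 6518 CPM (interval 6411 to 6626, 131 barcodes). This is above both controls, at 3717 and 2458 CPM, and was noted because these barcodes lie outside the comparisons. They can hold cells of several groups. No member differed past 1.5-fold in opposite directions between heart and liver.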

How the results depend on the processing

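No paired analysis was possible because each group is 1 hashtagged tube of 1 library, with no replicate to leave out or to pair. No summed ratio changed direction under any alternative. Of the planned values 147 stayed within the counting interval of the main value or, for counts, within 1.5 times, and 39 did not. In the order iSuRe-Cre to control heart, iSuRe-HadCre to control heart, iSuRe-HadCre to iSuRe-Cre heart and the same for liver, the values that moved were as follows. With at least 1 Cdh5 UMI they were 1.34 and 0.38 for the iSuRe-HadCre heart comparisons, 3.29 for iSuRe-Cre to control liver and 0.47 for iSuRe-HadCre to iSuRe-Cre liver. With the hashtag minimum doubled they were 4.01, 1.52 and 0.38 in heart and 0.51 for iSuRe-HadCre to iSuRe-Cre liver. With HTODemux they were 3.50 and 0.41 (iSuRe-HadCre to iSuRe-Cre) in heart and 2.45, 1.20 and 0.49 in liver. There 2 of 39 members were higher in iSuRe-HadCre than control liver, where 6.79% of all genes were higher with the main calls. With WPRE required they were 3.21 and 0.44 (iSuRe-HadCre to iSuRe-Cre) in heart and 2.67 for iSuRe-Cre to control liver. With at least 4000 UMIs per cell iSuRe-HadCre to iSuRe-Cre liver was 0.51, and without cells with a Ptprc or C1q UMI 0.56. With each cell counted equally the values were 1.52 and 0.43 in heart, and 2.39 and 0.61 in liver. Size factors gave 3.80, 1.29 and 0.34 in heart, 3.07 for iSuRe-Cre to control liver and 0.50 for iSuRe-HadCre to iSuRe-Cre liver. They took the median log2 ratio of all genes in iSuRe-HadCre to iSuRe-Cre heart from 0.11 to 0.00. Stab2 cells alone gave 3.38, 1.94 and 0.57 in liver (12 control cells), with 1 member lower in iSuRe-HadCre than control and 1 higher than iSuRe-Cre.

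Alternatives chosen after seeing the data gave 3.43, 1.52 and 0.44 in heart and 2.28 and 1.26 (10 members higher) against control in liver for cells of 5000 to 15000 UMIs. They gave 3.92, 1.72 and 0.44 in heart and 0.56 for iSuRe-HadCre to iSuRe-Cre liver without Ifitm3 and Bst2, and 3.70 and 1.45 against control in heart without the highest cells. Single members past the rule changed sign in iSuRe-HadCre to control liver alone, where Ifit1, Ifit3, Isg20 and Iigp1 did so with HTODemux and Irf7 with both depth limits. A gate of 5 marker UMIs gave 609 CPM for keratinocytes, 409 for chondrocytes, 473 for mesenchymal cells, 208 for neurons, 212 for glia and 1244 for hepatocytes. The cause of these shifts was not tested.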
